A study of Mus musculus with 22 samples.

Results

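The S100 proteins and annexins are 2 families of calcium-dependent proteins, and their transcripts were followed here in developing mouse molars. Members were taken by name: every gene of the deposited normalised table whose symbol begins with S100 and a letter, or with Anxa and a digit. The rule gave 29 of the 28711 genes in that table. They are 15 S100 genes, 11 annexin genes and 3 genes that carry a family name without belonging to either family. Those 3 are S100pbp (a binding protein of S100P), Anxa2r1 (annexin A2 receptor 1) and Anxa11os (an RNA antisense to Anxa11).

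S100 proteins are small dimers with EF-hand calcium-binding loops. On binding calcium they expose a surface that docks onto target proteins, among them annexins. Annexins bind membranes rich in acidic phospholipids when calcium rises, and they take part in membrane repair, vesicle traffic and, in mineralising tissue, in the matrix vesicles where the first mineral forms. In tooth germs, ameloblasts (the epithelial cells that make enamel) and odontoblasts (the mesenchymal cells that make dentin) both move large amounts of calcium.

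Total RNA of first mandibular molars was sequenced 5 days (P5) or 11 days (P11) after birth. Mice were wild type (WT, Tgfbr2-+/+) or carried 1 Tgfbr2 allele with the G357W change (Het, Tgfbr2-G357W/+, a model of Loeys-Dietz syndrome) and were littermates. The germline allele is present in every cell of the tooth. Each genotype had 6 libraries at P5 and 5 at P11, and neither strain nor sex is stated in the labels.

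Library totals lay between 32904047 and 45343814 counts. The series text counts 8 WT and 5 Het mice against these 22 libraries, and no label ties a library to an animal. One animal may therefore have given several libraries, so each p-value reflects only how much libraries vary. P5 Het 6 is called P5 in its title and P11 in its tissue and treatment fields, and it was kept at P5. Enamel and dentin markers (Amelx, Ambn, Enam, Dspp) were detected in all 22 libraries. Oral keratinocyte markers were raised in P11 WT 4, P11 WT 5 and P11 Het 2, whose means over 14 markers, in log2 CPM (read counts scaled to a common library size), were 6.81, 5.73 and 5.92. The other P11 libraries lay between 1.65 and 3.50. Of the P5 libraries, P5 Het 4 reached 0.82 on that scale and the rest were below 0. Skeletal muscle markers were highest in P11 Het 2 and P5 Het 5. Member calls that ended without these 5 libraries are named below. Other values are from all libraries unless stated. P5 Het 6, with its 2 stated ages, held 44000 CPM of Amelx, 27000 of Enam and 5.01 of Klk4, inside the range of the other P5 libraries. The P11 libraries held at most 4450 CPM of Amelx and 2710 of Enam, and at least 180 of Klk4. Library names also hold a number before a hyphen, called the prefix below, of unstated meaning. Its values are 1 or 2 for the P11 libraries and 3, 4 or 5 for the P5 libraries. No prefix occurs at both ages, so age and prefix cannot be told apart in any comparison of P5 with P11. Prefix 5 occurs only in P5 Het 5 and P5 Het 6, so genotype at P5 is partly confounded with prefix.

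Together the members took between 0.213% and 0.239% of all counts at P5. At P11 they took 0.261% to 0.355% in WT libraries and 0.262% to 0.312% in Het libraries. The annexins held most of this. The S100 genes took 0.021% to 0.0265% at P5 and 0.0366% to 0.0542% at P11. Of the 29 members, 28 passed the filter on low counts. The exception was Anxa2r1, which reached at most 0.203 CPM in any library.

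Levels of different genes were compared as CPM per kilobase of annotated exon. Anxa5, the annexin that binds phosphatidylserine and is abundant in matrix vesicles, was the highest member in all 4 groups on this scale. It stood at 517 ± 22 CPM per kilobase in P5 WT (SD, n = 6) and 372 ± 29 in P11 WT (SD, n = 5). At P5 in WT it was followed by Anxa2 at 118 ± 6.42 and Anxa6 at 113 ± 2.19, which did not differ beyond their spread. S100a1, a calcium sensor known from striated muscle, came next at 79.7 ± 3.59, and S100a10, the partner that joins 2 Anxa2 molecules, at 69.0 ± 12.2, again within their spread. At P11 in WT the order below Anxa5 was Anxa1 at 168 ± 44.7, S100a1 at 149 ± 5.58, Anxa2 at 146 ± 28.9 and Anxa6 at 90.7 ± 3.30 CPM per kilobase. Of these, Anxa1, S100a1 and Anxa2 lay within their spread of one another. Anxa8 moved from place 24 of 29 at P5 to place 8 at P11.

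**Figure D1:**
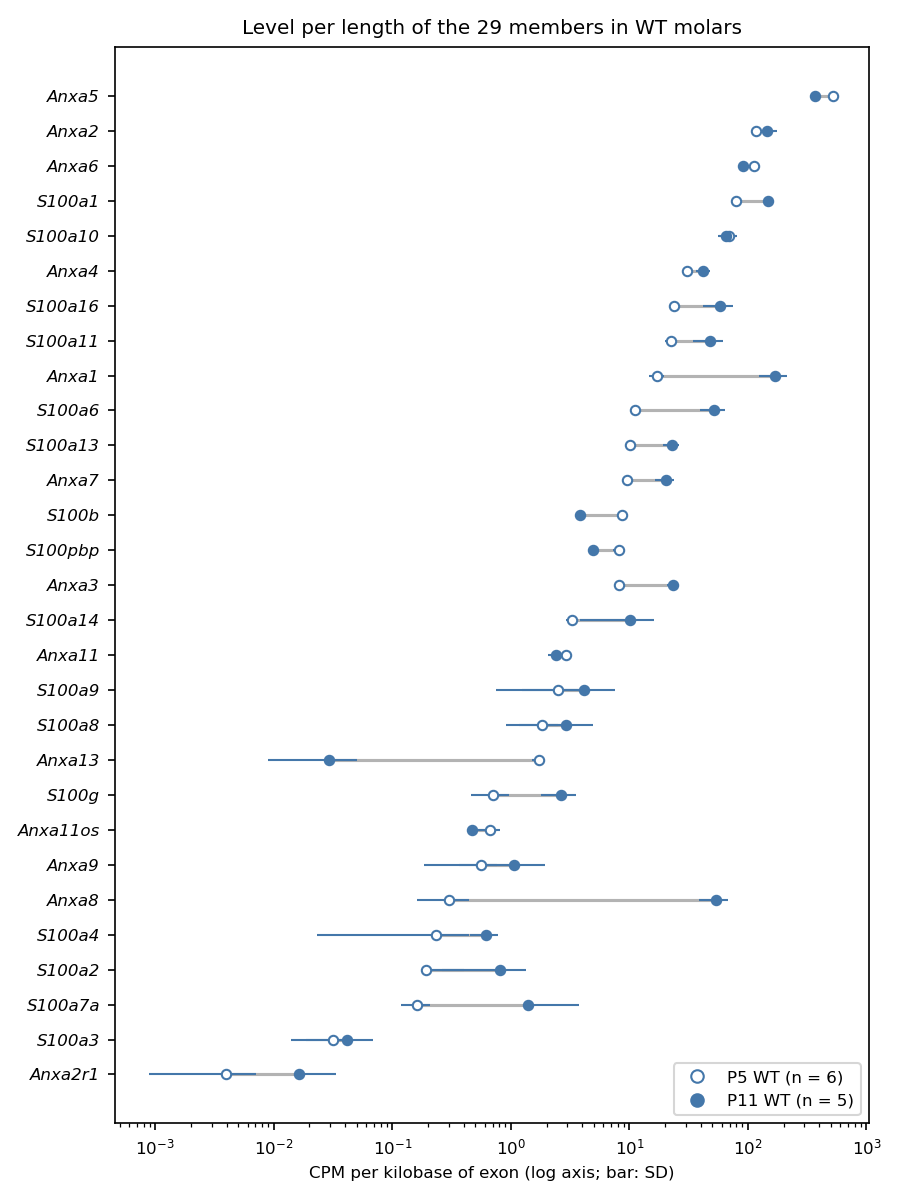
Mean level of each of the 29 members in WT molars, as CPM per kilobase of annotated exon on a log axis, at P5 (open points, n = 6) and P11 (filled points, n = 5). Bars are the SD, and the lower arm is left out where it would reach 0. Anxa5 is the highest point at both ages, and Anxa8 and Anxa13 move farthest.

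The first comparison asked how the members changed between P5 and P11, tested in each genotype with edgeR on all 21510 genes that passed the filter. Most members were higher at P11. In WT molars 16 of 28 tested members rose and 7 fell at a Benjamini-Hochberg adjusted p under 0.05, where 49.4% of all genes passed (24.8% higher and 24.7% lower). In Het molars 15 rose and 5 fell, against 47.8% of all genes (24.4% higher and 23.4% lower). The median log2 fold change of the members was 0.91 in WT and 0.79 in Het, and that of all genes tested was -0.01 in both. Without the 5 marker-raised libraries the counts were 12 higher and 6 lower in WT and 15 higher and 5 lower in Het. Of all 22013 genes tested in that setting, 4690 rose and 4595 fell in WT, and 4562 rose and 4384 fell in Het. For the S100 genes alone the medians were 1.16 and 1.09, and for the annexins 0.46 and 0.27.

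The same 15 members rose in both genotypes and the same 5 fell in both. Anxa11, Anxa11os and S100a7a passed in WT only, and their interactions of genotype and age had adjusted p of 0.729, 0.707 and 0.75 in edgeR. The members that passed in neither were S100a3, S100a8, S100a9, S100a10 and Anxa9. Between P5 and P11 the groups did not overlap for 12 members that were higher and 5 that were lower in WT, where 32% of all tested genes did not overlap (16.6% higher and 15.5% lower). In Het there were 14 higher and 5 lower without overlap, against 30.3% of all tested genes (15.9% and 14.4%). In bulk tissue, more cells of a type and more RNA per cell cannot be told apart, here or in any result below.

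**Figure D2:**
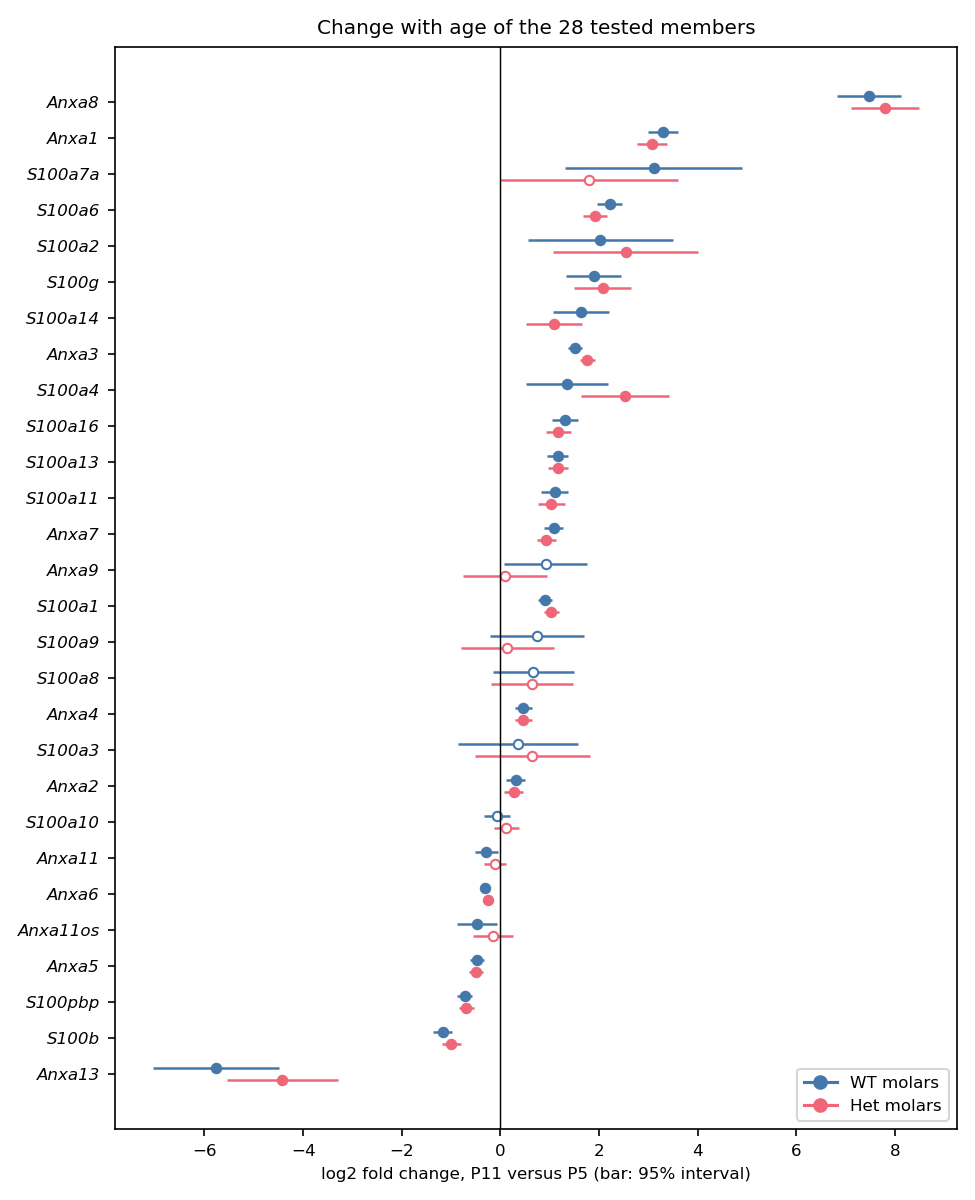
Log2 fold change between P5 and P11 of the 28 tested members in WT (blue) and Het (red) molars, with 95% intervals. Filled points passed the adjusted p of 0.05. Points right of 0 were higher at P11. Anxa8 lies farthest right and Anxa13 farthest left in both genotypes.

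The stretch before the start site is shown for Anxa8, the member that changed most, and for Anxa2 and S100a11, where a search found the AP-1 motif TGANTCA. The gap between S100a1 and S100a13 is shown because these neighbours are read in opposite directions and rose together. Sequences are from the RefSeq table on GRCm38.p6, plus strand, 5′ to 3′. Start sites are those of RefSeq, while the gap is bounded by the GENCODE ends of its 2 genes. Bases in GENCODE exons were skipped, so a stretch need not end at the start site. The stretches run from -150 to -1 for Anxa8, from -213 to -64 for Anxa2 and from -158 to -9 for S100a11. Capitals mark AP-1 motif matches. The positions are chr14:34085829-34085978 for Anxa8, chr9:69453470-69453619 for Anxa2, chr3:93520338-93520487 for S100a11 and chr3:90514393-90514434 for the gap.
Anxa8: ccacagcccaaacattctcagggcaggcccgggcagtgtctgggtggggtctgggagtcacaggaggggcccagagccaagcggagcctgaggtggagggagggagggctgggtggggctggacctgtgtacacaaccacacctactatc
Anxa2: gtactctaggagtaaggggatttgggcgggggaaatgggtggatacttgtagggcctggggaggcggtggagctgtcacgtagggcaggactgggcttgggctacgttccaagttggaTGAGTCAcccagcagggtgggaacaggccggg
S100a11: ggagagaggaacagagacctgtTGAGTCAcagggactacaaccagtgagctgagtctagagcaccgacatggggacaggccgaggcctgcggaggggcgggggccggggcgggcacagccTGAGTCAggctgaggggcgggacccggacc
S100a1/S100a13: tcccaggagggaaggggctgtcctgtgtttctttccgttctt

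RefSeq start site windows were found for 21 of the 29 members, some with more than 1, which gave 29 member windows. The 250 bases before each start were searched on both strands. TGANTCA was found in 3 of the 29 member windows and in 6.75% of all 32851 windows. The 3 were those of Anxa2 (at -95), S100a11 (at -136 and -38) and S100a16 (at -192). The matched word was TGAATCA in S100a16 and TGAGTCA in the others. All 3 genes are among the 15 of 28 tested members that rose with age in both genotypes. The WT call of Anxa2 ended without the 5 marker-raised libraries. The TATA box TATAAA was found in 5 of the 29 member windows and in 12.4% of all windows. Its 5 genes were Anxa1, Anxa2, S100a3, S100a4 and S100a8. The CCAAT box was found in 5 of the 29 member windows, of 4 genes, and in 33.8% of all windows. Those genes were S100a3, S100a6, S100b and S100pbp. None of the 3 motifs contains another, and a match describes the sequence only. Members with and without each motif were not tested against each other.

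Among the annexins, Anxa8 changed most, ahead of Anxa13, which fell and is described after those that rose. Anxa8 is an annexin of stratified and other epithelia. At P5 it was near the limit of detection, with 11 to 36 counts in the WT libraries and 2 to 28 in the Het libraries, or medians of 0.562 CPM (range 0.296 to 1.02) and 0.256 CPM (0.0514 to 0.834). At P11 the WT libraries 1 to 5 held 73.2, 86.5, 83.3, 131 and 130.0 CPM, and the Het libraries 60.2, 62.0, 55.9, 83.3 and 111 CPM. Every P11 library lay far above every P5 library. The log2 fold change was 7.47 ± 0.32 (SE) in WT and 7.79 ± 0.33 in Het, or 178-fold and 222-fold, with edgeR adjusted p of 3.03e-15 and 4.46e-15. The fold rests on few counts at P5. Oral keratinocyte markers moved the same way: 13 of 14 rose and 1 fell in each genotype. Their median log2 fold change was 6.57 in WT and 4.72 in Het. Their summed level, which follows the most abundant markers, was 571 to 623 CPM in P5 WT and 580 to 602 in P5 Het. At P11 that sum was 722 to 2380 CPM in WT and 747 to 1550 in Het. No marker of that list was at 0 throughout a group. Without the 5 marker-raised libraries the Anxa8 fold was 143 in WT and 206 in Het. Of the P11 libraries with raised keratinocyte markers, P11 WT 4 and P11 WT 5, both of prefix 2, held the highest Anxa8 values. P11 Het 2, of prefix 1, held 62.0 CPM, inside the range of the other Het libraries. The part of these markers in the change of Anxa8 was not tested.

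Anxa1, a phospholipase-inhibiting annexin with anti-inflammatory roles, had the next largest rise among the annexins. Its P5 medians were 51.4 CPM in WT (41.0 to 59.1) and 46.9 CPM in Het (44.4 to 50.7). At P11 WT libraries 1 to 5 held 347, 449, 400, 614 and 638 CPM, and Het libraries 372, 333, 342, 457 and 491 CPM. The ages did not overlap, and the highest P11 values were those of P11 WT 4 and 5. The log2 fold change was 3.30 ± 0.15 in WT and 3.07 ± 0.15 in Het (edgeR adjusted p of 7e-15 and 2.54e-14), about 9.87-fold and 8.40-fold.

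Anxa3, an annexin of neutrophils and epithelia, also rose. Its P5 medians were 29.1 CPM in WT (26.9 to 33.7) and 26.0 CPM in Het (24.7 to 28.3). At P11 it read 79.4, 81.3, 73.9, 95.9 and 91.8 CPM in WT and 81.3, 82.8, 94.8, 90.0 and 96.4 CPM in Het. No P11 library came near the P5 range. The log2 fold changes were 1.51 ± 0.07 and 1.76 ± 0.07, with edgeR adjusted p of 2.85e-14 and 2.97e-15. Anxa7, also called synexin, a promoter of membrane fusion, went from a mean of 57.1 ± 3.29 CPM (SD, n = 6) to 121 ± 22.9 CPM (SD, n = 5) in WT and from 56.5 ± 1.65 to 108 ± 13.3 in Het, without overlap. Without the 5 marker-raised libraries its fold was 1.83 in place of 2.12 in WT, and 1.92 in place of 1.91 in Het.

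Anxa4, an annexin of secretory and absorptive epithelia, rose less, from 142 ± 10.3 to 196 ± 26.4 CPM in WT and from 143 ± 12.6 to 198 ± 16.8 CPM in Het. Its ages did not overlap either. Without the 5 marker-raised libraries the Anxa4 fold was 1.24 in place of 1.38 in WT, and 1.41 in place of 1.38 in Het. Anxa2, which organises membrane domains and binds plasminogen activator, rose by 0.31 ± 0.10 on the log2 scale in WT and by 0.27 ± 0.10 in Het, with overlapping ranges (edgeR adjusted p of 0.00977 and 0.0228). Without the 5 libraries the WT change of Anxa2 was 0.10, with an adjusted p of 0.405, and the Het change was 0.23, with an adjusted p of 0.0398. With the oral keratinocyte and muscle scores as covariates the calls of Anxa2 and Anxa4 ended in both genotypes. The Anxa2 changes were then -0.063 in WT and -0.053 in Het, and the Anxa4 changes 0.169 and 0.214. Without P11 Het 4 alone the adjusted p of Anxa2 in Het was 0.0501.

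The annexins that fell were Anxa5, Anxa6 and Anxa13. Anxa5 had P5 medians of 907 CPM in WT (884 to 982) and 948 CPM in Het (858 to 1030), and P11 values of 598, 684, 624.7, 664 and 730 CPM in WT and 644, 673, 672, 742 and 651 CPM in Het. All P11 libraries were below all P5 libraries. It fell by 0.48 ± 0.07 and 0.50 ± 0.07 on the log2 scale, with edgeR adjusted p of 1.85e-06 and 1.16e-06. Anxa6, another matrix vesicle annexin, fell by 0.32 ± 0.05 in WT and 0.25 ± 0.05 in Het, again without overlap. Its spread between libraries was the smallest of the abundant annexins (331 ± 6.41 CPM in P5 WT and 266 ± 9.66 CPM in P11 WT).

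Anxa13, a lipid-anchored annexin known from intestinal and kidney epithelium, fell to a few reads. It had 72 to 99 counts in each P5 WT library and 47 to 92 in each P5 Het library. At P11 the WT libraries held 2, 1, 2, 3 and 0 counts and the Het libraries 0, 17, 0, 0 and 3, where a count of 0 allows up to 3. The ages did not overlap. The log2 fold change was -5.76 ± 0.62 in WT and -4.42 ± 0.54 in Het (edgeR adjusted p of 3.86e-08 and 3.54e-07). Without P11 Het 2, which held 17 of the 20 Het counts, the Het change was -6.60. Secretory ameloblast markers fell over the same interval, 5 of 5 in each genotype, from a summed 153000 to 168000 CPM in P5 WT and 122000 to 162000 in P5 Het to 17300 to 26100 and 18300 to 44700 at P11. Maturation ameloblast markers rose, 8 of 8 in each genotype. No marker of either list was at 0, and their part in any member's change was not tested.

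Anxa11, which tethers RNA granules to lysosomes, and its antisense RNA Anxa11os read lower at P11 in WT, at adjusted p of 0.0375 and 0.045. Anxa11 had 12.04 ± 1.2 CPM in P5 WT and 9.88 ± 1.39 in P11 WT, and Anxa11os 1.64 ± 0.37 and 1.18 ± 0.09 CPM, with overlapping ranges. The Anxa11 call ended without any one of 9 single libraries and the Anxa11os call without any one of 15. Without the 5 marker-raised libraries the log2 fold change of Anxa11os was -0.49, at an edgeR adjusted p of 0.132. That of Anxa11 was then -0.40, against -0.285 with all libraries, and its call stayed (adjusted p of 0.0139). The kit does not mark strand, and the exons of these genes share 113 bases, so reads there cannot be told apart. Anxa9, an annexin without working calcium sites, passed in neither genotype.

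Of the S100 genes, 13 of 15 lie on mouse chromosome 3. A block of 11 lies at chr3:90511034-90695721 (GRCm38), and S100a10 and S100a11 lie at chr3:93520488-93564643. In WT 9 of the 13 rose, in Het 8, and none fell in either. Over all genes 24.8% rose and 24.7% fell in WT, and 24.4% and 23.4% in Het. Of the 2 S100 genes elsewhere, S100b on chromosome 10 fell in both genotypes and S100g on chromosome X rose in both.

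S100a6, or calcyclin, a partner of several annexins, rose most of the S100 genes above 10 CPM. Its P5 medians were 15.2 CPM in WT (13.7 to 16.9) and 19.2 CPM in Het (15.5 to 21.6). At P11 WT libraries read 55.0, 65.8, 56.8, 92.2 and 84.7 CPM and Het libraries 57.6, 71.8, 68.3, 75.5 and 77.8 CPM. Every P11 value was above every P5 value. The log2 fold change was 2.21 ± 0.12 in WT and 1.91 ± 0.12 in Het (edgeR adjusted p of 2.35e-13 and 3.03e-12). S100a11, the S100 partner of Anxa1, and S100a16, a widely expressed S100 protein that binds calcium weakly, also rose without overlap. S100a11 went from 11.4 ± 1.21 to 24.4 ± 6.94 CPM in WT and from 11.4 ± 1.37 to 23.4 ± 1.64 CPM in Het. S100a16 went from 38.3 ± 3.59 to 94.8 ± 26.8 CPM in WT and from 38.9 ± 3.42 to 87.8 ± 8.96 CPM in Het. With all libraries the WT folds of S100a6, S100a11 and S100a16 were 4.64, 2.14 and 2.47. Without the 5 marker-raised libraries they were 3.88, 1.73 and 2.01. In Het the folds were 3.76, 2.05 and 2.25 with all libraries, and 3.91, 2.13 and 2.22 without the 5.

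S100a1 and S100a13, which takes part in the release of growth factors that lack a signal peptide, start head to head on chromosome 3, on the minus and plus strand. Both rose. S100a1 had P5 medians of 54.8 CPM in WT (51.8 to 58.9) and 57.6 CPM in Het (49.1 to 65.2). At P11 its WT libraries read 109.8, 103, 101, 102 and 100.0 CPM and its Het libraries 106, 125, 135, 104 and 118 CPM. The ages did not overlap, and the WT values at P11 were close together. Its log2 fold change was 0.90 ± 0.07 in WT and 1.03 ± 0.07 in Het, and that of S100a13 was 1.16 ± 0.10 and 1.17 ± 0.10 (edgeR adjusted p of 1.17e-09 or lower in all 4 tests).

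S100a10 did not follow its annexin partner or its neighbour S100a11 past the threshold. It read 83.6 ± 14.8 CPM in P5 WT and 79.8 ± 11.7 in P11 WT, a log2 difference of -0.07 (95% interval -0.33 to 0.19), and 0.12 (-0.14 to 0.38) in Het. The difference between S100a10 and the other members was not tested.

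S100b, the S100 protein of glia and Schwann cells, fell. Its P5 medians were 13 CPM in WT (11.3 to 14.5) and 12.9 CPM in Het (11.3 to 15.7). At P11 it read 5.88, 6.21, 6.17, 4.87 and 5.38 CPM in WT and 7.60, 6.35, 5.86, 6.65 and 6.35 CPM in Het. All P11 libraries lay below all P5 libraries. The log2 fold change was -1.17 ± 0.10 in WT and -0.99 ± 0.10 in Het (edgeR adjusted p of 4.55e-10 and 7.6e-09). Of 10 Schwann cell markers 7 rose in each genotype, while 3 fell in WT and 2 in Het, and none was at 0. The median log2 fold change of these markers was 1.478 in WT and 1.505 in Het. Their summed level, which follows the most abundant markers, was 170 to 218 CPM in P5 WT and 169 to 211 in P5 Het. At P11 that sum was 152 to 174 CPM in WT and 148 to 190 in Het. The part of the Schwann cell markers in the change of S100b was not tested. S100pbp, a nuclear protein found as a partner of S100P, fell too, from 77.0 ± 8.22 to 46.5 ± 2.21 CPM in WT and from 76.2 ± 5.13 to 47.3 ± 2.98 CPM in Het.

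S100g, or calbindin-D9k, the vitamin D dependent calcium carrier of intestinal epithelium, rose from a low level. Its P5 means were 0.342 ± 0.120 CPM in WT and 0.252 ± 0.0690 CPM in Het, and its P11 means 1.28 ± 0.42 and 1.08 ± 0.28. The ages did not overlap, and the log2 fold changes were 1.90 ± 0.27 and 2.08 ± 0.28. S100a4, or metastasin, a partner of non-muscle myosin, and S100a2, an epithelial S100 protein, were also called higher in both genotypes but never passed 0.553 and 0.457 CPM. In WT both calls ended without the 5 libraries, at adjusted p of 0.0803 and 0.0814, and the S100a2 call also ended without P11 WT 2 alone or P11 WT 5 alone (adjusted p up to 0.0723). With the marker scores as covariates the WT calls of both genes ended, and the Het call of S100a2. The S100a4 change in WT was 1.35, and 2.01 without P5 WT 3, which held 15 of the 31 P5 WT counts. In the GENCODE annotation 51.7% of the S100a4 exon bases are shared with the predicted gene Gm42674 on the same strand, so its level is uncertain. Gm42674 also shares 144 exon bases with S100a3, and antisense genes share 98 with Anxa2 and 75 with Anxa4.

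**Figure D3:**
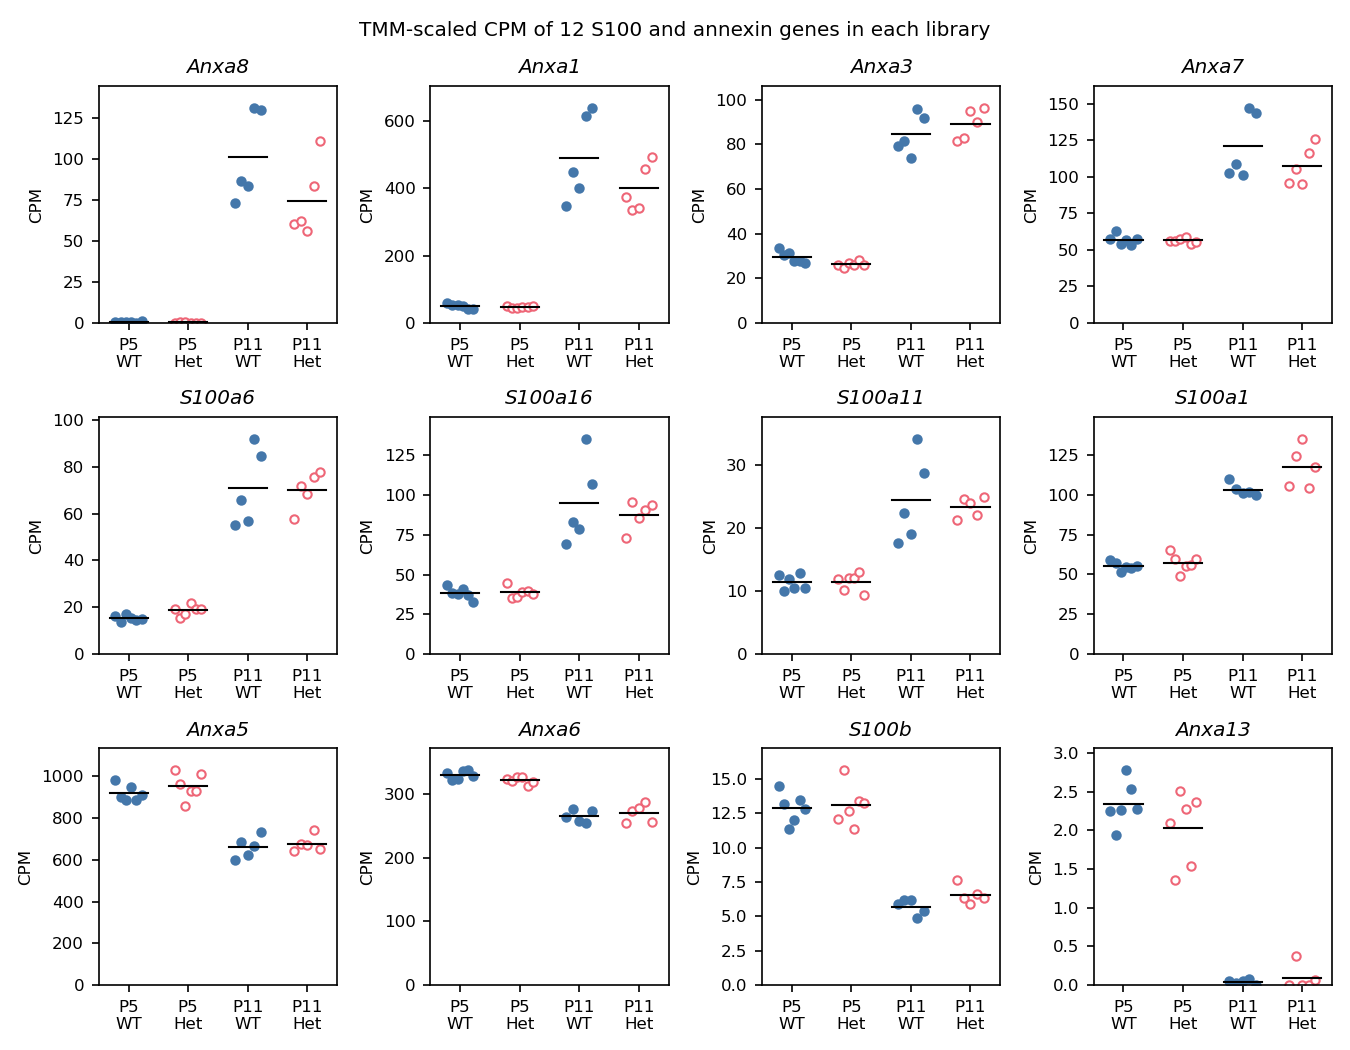
TMM-scaled CPM of 12 members in each of the 22 libraries, with WT as filled blue points, Het as open red points and the group mean as a line. Each vertical axis starts at 0. For all 12 genes the P5 and P11 points do not overlap within a genotype, and the WT and Het points overlap at each age. Members whose ages overlapped, 12 of 29 in WT and 10 of 29 in Het, are not drawn. Of all tested genes, 32% in WT and 30.3% in Het did not overlap between the ages.

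S100a14 and S100a7a were highest at P11 in the 3 libraries with raised oral keratinocyte markers. S100a14, an epithelial S100 protein, read 33.4, 23.2 and 19.1 CPM in P11 WT 4, P11 WT 5 and P11 Het 2. The other 7 P11 libraries lay between 8.67 and 13.7 CPM, still above the P5 range of 4.40 to 7.33 CPM. It rose by 1.63 ± 0.27 on the log2 scale in WT and 1.09 ± 0.27 in Het (edgeR adjusted p of 2.69e-05 and 0.00199). Without the 5 libraries the changes were 0.84 and 0.88, or 1.79-fold and 1.84-fold in place of 3.09-fold and 2.13-fold, at adjusted p of 0.000196 and 0.000172.

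S100a7a, the mouse relative of psoriasin, a protein of inflamed and cornifying epidermis, read 7.73, 1.12 and 2.95 CPM in the same 3 libraries and at most 0.639 CPM in the other 7. Its P5 values were 0.112 to 0.411 CPM. In WT it was called higher at P11 by 3.11 ± 0.87 on the log2 scale (edgeR adjusted p of 0.00444). Without P11 WT 4 that change was 1.13, at an adjusted p of 0.206, and without the 5 libraries 0.35, at 0.629. Anxa9 read 5.21, 2.59 and 2.79 CPM in the 3 libraries and 0.696 to 1.58 CPM in the other P11 libraries. Krt4, a keratin of the oral lining, read 305, 81.0 and 271 CPM there and 0.541 to 17.2 CPM in the rest. With the oral keratinocyte and muscle scores as covariates, which themselves differ between the ages, neither S100a14 nor S100a7a was called. The age changes were then 0.065 for S100a14 and -1.978 for S100a7a in WT, and -0.188 for S100a14 in Het, with adjusted p of 0.855, 0.0609 and 0.534.

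S100a8 and S100a9, the chains of calprotectin, an antimicrobial complex of neutrophils, did not pass in either genotype. At P11 WT libraries S100a8 read 0.850, 0.942, 1.25, 3.46 and 3.60 CPM, and in Het libraries 0.558, 1.92, 1.73, 3.26 and 2.16 CPM. S100a9 read 0.722, 0.942, 1.08, 3.38 and 4.67 CPM and 0.674, 2.60, 1.56, 3.15 and 1.78 CPM. P11 WT 4, P11 WT 5 and P11 Het 4 were high for both genes. Those 3 libraries also had the highest neutrophil marker means at P11 (1.38, 1.31 and 1.08 log2 CPM over 13 markers, where the other 7 P11 libraries lay between -1.23 and 0.42). The summed neutrophil markers were 9.18 to 47.2 CPM in P11 WT and 6.86 to 41.5 in P11 Het, with none at 0 throughout a group. S100a3, a hair cuticle protein, never passed 0.649 CPM and was not called.

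**Figure D4:**
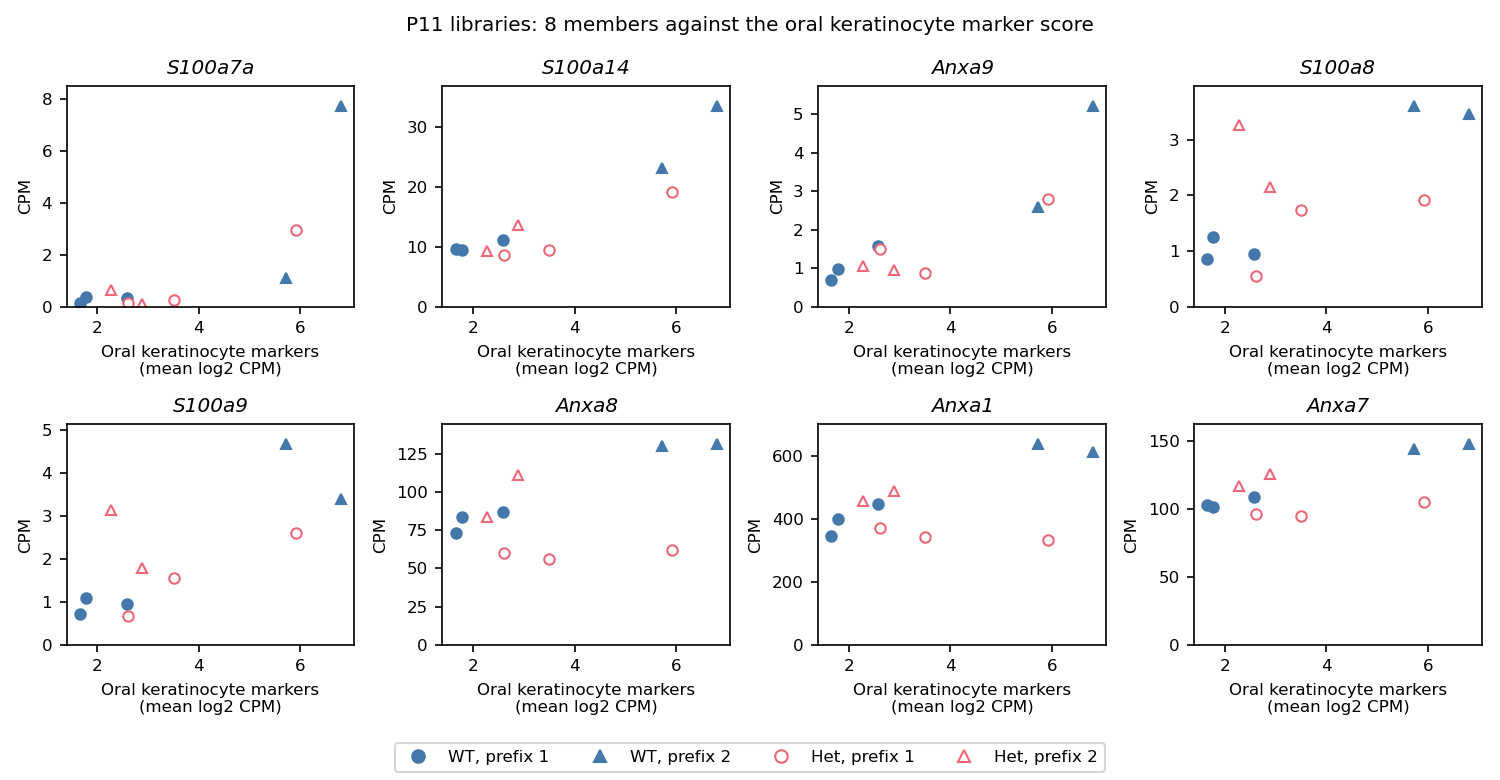
CPM of 8 members in the 10 P11 libraries (vertical, from 0) against the mean log2 CPM of the oral keratinocyte markers (horizontal), with WT as filled blue and Het as open red points. Circles are library-name prefix 1 and triangles prefix 2. S100a7a, S100a14 and Anxa9 are highest in the 3 libraries at the right, while for Anxa8, Anxa1 and Anxa7 P11 Het 2 lies below all 4 prefix 2 libraries.

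The second comparison set Het against WT molars at each age. No member was called. At P5 edgeR called 0 of 28 members, where 0.26% of all genes passed (0.0651% higher and 0.195% lower). At P11 it called 0 of 28, where 0.0279% passed (0.0232% higher and 0.00465% lower). At an unadjusted p under 0.05 there were 2 members at P5 and 1 at P11, where 6.22% and 9.85% of all genes lay under it. DESeq2 and limma-voom also called 0 at both ages, though DESeq2 gave no adjusted p for 3 members at each age. The groups overlapped for all 29 members at both ages, where 0.851% of tested genes did not overlap at P5 (0.344% higher and 0.507% lower) and 1.36% at P11 (0.614% and 0.748%). Member medians were -0.01 at P5 and 0.02 at P11 on the log2 scale, against 0.00 and -0.01 over all genes.

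At P5 the smallest p values belonged to S100a6, Anxa3 and S100a4. The S100a6 medians were 19.2 CPM in Het libraries and 15.2 CPM in WT libraries, with ranges that overlapped between 15.5 and 16.9. The log2 difference was 0.29 (95% interval 0.05 to 0.52), with an edgeR adjusted p of 0.662. Anxa3 differed by -0.17 (-0.31 to -0.02), at an adjusted p of 0.698, and S100a4, at very low counts, by -0.88 (-1.86 to 0.09), at 0.843. Without P5 WT 3 the S100a4 difference was -0.24.

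At P11 they were S100a1, Anxa1 and S100b. S100a1 read 117 ± 13.2 CPM in Het libraries against 103 ± 3.87 CPM in WT libraries, a log2 difference of 0.19 (95% interval 0.03 to 0.34) at an edgeR adjusted p of 0.408. Its Het libraries reached 135 CPM, but the lowest were within the WT range. Anxa1 differed by -0.29 (-0.59 to 0.002), at an adjusted p of 0.509. P11 WT 4 and P11 WT 5 held the highest values, and without the 5 marker-raised libraries the difference was 0.06, at an adjusted p of 0.927. S100b differed by 0.20 (-0.004 to 0.41), at 0.516.

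The precision of these values can be read from the 16 members with a mean of at least 10 CPM. Their log2 differences ran from -0.76 (Anxa8, near the detection limit at that age) to 0.29 (S100a6) at P5, with interval bounds between -1.69 and 0.52. At P11 they ran from -0.44 (Anxa8) to 0.19 (S100a1), with bounds between -0.92 and 0.41. For Anxa5 the interval was -0.08 to 0.18 at P5 and -0.11 to 0.18 at P11. For Anxa6 it was -0.14 to 0.06 and -0.08 to 0.13. Members of low counts were much less certain, such as S100a7a at -2.89 to 0.44 and Anxa13 at -0.61 to 2.87 at P11.

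**Figure D5:**
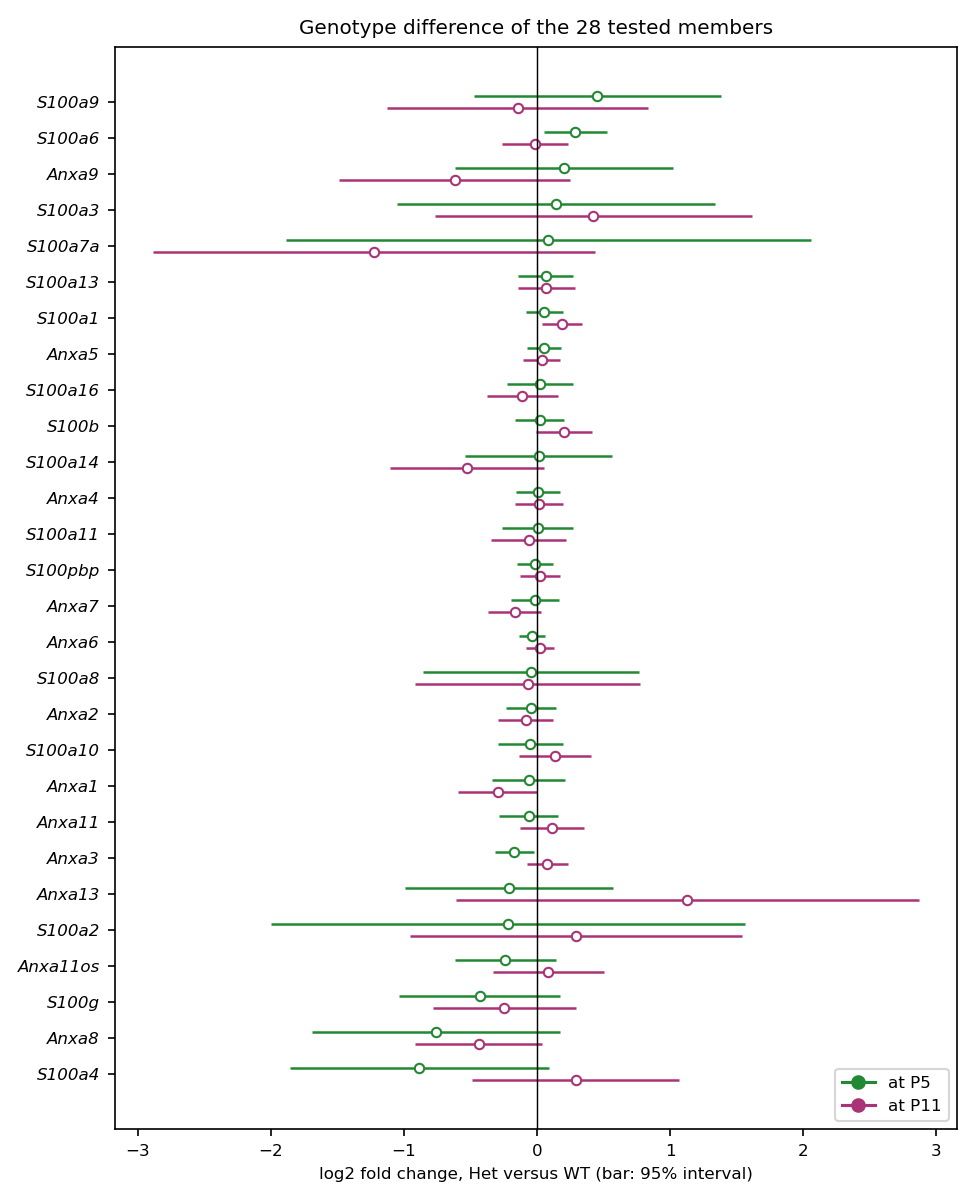
Log2 fold change of Het against WT for the 28 tested members at P5 (green) and P11 (purple), with 95% intervals. No point passed the adjusted p of 0.05, so all are open. Abundant genes such as Anxa5 and Anxa6 have intervals close to 0, and genes of low counts such as S100a7a, S100a2 and Anxa13 have wide ones.

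Whether the change with age differed between genotypes was tested as an interaction. EdgeR called 0 of 28 members, where 0.0139% of all genes passed, and 1 member had an unadjusted p under 0.05, as did 10.3% of all genes. DESeq2 and limma-voom also called 0, though DESeq2 gave no adjusted p for 3 members. The member with the smallest p was Anxa3, whose rise was larger in Het by 0.25 on the log2 scale (95% interval 0.03 to 0.46, edgeR adjusted p of 0.436). S100a4 followed at 1.17 (-0.07 to 2.42), at 0.506, or 0.53 without P5 WT 3, and S100a6 at -0.30 (-0.65 to 0.04), at 0.538. Without the 5 libraries the S100a6 value was 0.01.

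Within an age the members also varied with the library-name prefix, a split the labels do not explain. At P5, prefix 4 against prefix 3 gave 1 member, S100pbp, higher by 0.23 ± 0.06 on the log2 scale (edgeR adjusted p of 0.0339), where 3.05% of all genes passed (1.72% higher and 1.33% lower). That call ended without any one of 5 single libraries. S100a1 at -0.17 and Anxa1 at -0.18 came next, with adjusted p of 0.172 and 0.308. At P11, prefix 2 against prefix 1 gave 8 of 28 members higher and 0 lower, where 5.63% of all genes passed (2.26% higher and 3.37% lower). These were Anxa1, Anxa2, Anxa7, Anxa8, S100a6, S100a8, S100a9 and S100a16. Prefix 2 holds 4 libraries, P11 WT 4 and 5 and P11 Het 4 and 5, and prefix 1 the other 6.

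Anxa7 had the smallest p. Prefix 1 libraries read 101 to 109 CPM in WT and 94.9 to 105 CPM in Het, and prefix 2 libraries 144 to 148 CPM in WT and 116 to 126 CPM in Het. Within each genotype the prefixes did not overlap. The difference was 0.39 ± 0.05 on the log2 scale, with an edgeR adjusted p of 0.000187. Anxa1 differed by 0.55 ± 0.09 and Anxa8 by 0.70 ± 0.15, also without overlap within a genotype. Single libraries left out ended the Anxa2 call in 5 cases, the S100a16 call in 6 and the S100a9 call in 13, P11 WT 4 and P11 WT 5 among them each time. The S100a6 call ended without P11 WT 4 and the S100a8 call without P11 WT 5.

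Over the same split 4 of 14 oral keratinocyte markers and 3 of 11 tested neutrophil markers were higher, and 3 of 5 secretory ameloblast markers were lower. Macrophage markers were lower in 4 of 10, maturation ameloblast markers in 2 of 8 and endothelial markers in 1 of 8. Odontoblast markers were higher in 3 of 9 and lower in 1, and pulp and follicle markers higher in 2 of 8. The skeletal muscle, Schwann cell, osteoclast, cartilage, adipocyte and erythroid lists had 0 called. Without the 5 libraries, which leaves P11 Het 4 and 5 as the whole of prefix 2, no member was called. Of all 22013 genes tested in that setting, only 42 were higher and 85 lower. The member differences were then 0.34 for Anxa7, 0.41 for Anxa1 and 0.74 for Anxa8. With the oral keratinocyte and muscle scores as covariates 4 members were called, Anxa7 at 0.338, Anxa1 at 0.468, Anxa8 at 0.773 and S100a8 at 1.276. In that fit 289 of all 21510 genes were higher and 433 lower. The part of the other marker lists was not tested.

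Genes that work with the members were read from lists, to be set against the 24.8% of all genes that rose and 24.7% that fell in WT (24.4% and 23.4% in Het). Of 20 tested partners and receptors of S100 proteins and annexins, 7 rose and 5 fell in WT, and 6 rose and 5 fell in Het, with medians of 0.01 and 0.06 on the log2 scale. Tgm2, a transglutaminase, rose by 1.54 ± 0.13 in WT and 1.40 ± 0.13 in Het. Myof, a membrane repair ferlin, rose by 1.12 ± 0.10 and 0.93 ± 0.10, and Plat, tissue plasminogen activator, by 0.79 ± 0.09 and 0.84 ± 0.09. Kcnk3, a potassium channel carried to the surface with S100a10, fell by 1.99 ± 0.21 and 1.42 ± 0.20.

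Of 27 other EF-hand genes tested, 14 rose and 4 fell in WT, and 15 rose and 6 fell in Het, with medians of 0.34 and 0.29. Tesc, a regulator of a sodium-proton exchanger, fell by 3.15 ± 0.12 in WT and 3.38 ± 0.12 in Het. Efhd2, an actin-binding EF-hand protein, rose by 1.29 ± 0.09 and 1.28 ± 0.09. Of 19 matrix vesicle and mineral genes, 12 rose and 6 fell in WT, and 10 rose and 7 fell in Het. Spp1 (osteopontin) rose by 3.17 ± 0.25 and 3.38 ± 0.25, Ibsp (bone sialoprotein) by 2.58 ± 0.20 and 2.12 ± 0.20, and Enpp1, which makes the mineral inhibitor pyrophosphate, by 1.30 ± 0.14 and 1.75 ± 0.14. Atp2b1, a plasma membrane calcium pump, fell by 1.19 ± 0.07 and 1.27 ± 0.07. Enpp1 was the only gene of these lists called between genotypes, lower by 0.65 ± 0.13 in Het at P5 (edgeR adjusted p of 0.0226), and it was also higher in prefix 4 than in prefix 3 at P5 by 0.54 ± 0.09.

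Only 9 of 24 listed genes of the epidermal differentiation complex, a chromosome 3 cluster of cornification genes, passed the filter. In each genotype 8 rose and 1 fell, with medians of 6.46 in WT and 4.16 in Het. A gene near 0 at P5 could pass the filter only through its P11 libraries, so the filter itself favours genes that rose. These medians include the marker-raised libraries. Tchhl1, an S100-fused protein, rose by 4.54 ± 0.43 in WT and 4.16 ± 0.41 in Het. Rptn and Hrnr rose too, while Tchh (trichohyalin) fell by 1.81 ± 0.11 and 1.24 ± 0.11. Sprr1a and Sprr3 of this list are also among the oral keratinocyte markers, which were raised in 3 P11 libraries.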

How the data were processed

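Bulk RNA-seq was read from 22 libraries of mouse first mandibular molars, prepared with an unstranded Nextera XT kit without molecular identifiers and sequenced as 100-base read pairs, per the labels' protocols. STAR 2.7.3a, DESeq2, edgeR, limma and build GRCm38 are named in the submitters' processing notes. For the read counter, and for the annotation behind the counts: not given in the sources used here. Raw counts were deposited by the authors for 55439 features, of which 18 are not mouse genes and were left out (at most 0.000457% of a library). They also deposited normalised values of 28711 genes, a signal equal to counts divided by TMM-scaled library sizes, used here for symbols only.

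Counts were tested with edgeR 4.0.16 (R 4.3.3; TMM, filterByExpr at min.count 10 and min.total.count 15, 21510 genes, quasi-likelihood F test, 18 residual degrees of freedom, 4 groups in 1 fit, two-sided, Benjamini-Hochberg over all genes). The prefix entered as a term within age. CPM are TMM-scaled. Exon lengths and coordinates are from GENCODE M21. Code was tested on simulated data. Alternatives were DESeq2 1.42.0, voom (limma 3.58.1), DESeq2 size factors, no filter, blocks, marker covariates and libraries left out. Every called member was named, or the 3 of smallest p where fewer than 3 were called, with the 6 of highest mean. Members and lists were chosen with earlier results of these data known.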

Additional observations from a re-analysis of the deposited data

Results flagged for a closer look

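Of 116 combinations of a member and a group, 7 held a library that stood apart from the others of its group by Dixon's criterion, and chance gives about 1 in 20. S100a7a stood apart in P11 WT 4 at 7.73 CPM and in P11 Het 2 at 2.95 CPM, both libraries with raised oral keratinocyte markers. Anxa13 stood apart in P11 Het 2 at 0.371 CPM. Anxa9 stood apart in P5 WT 3 at 1.93 CPM and in P5 Het 4 at 2.27 CPM. S100a4 stood apart in P5 WT 3 at 0.381 CPM, and Anxa2r1 in P5 Het 2 at 0.0869 CPM, from very few reads. S100a5 is in the raw table but not among the members, and its highest value was 4 counts, in P11 Het 5, above the 3 counts that a count of 0 allows.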

How the results depend on the processing

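The counts of 0 members called between genotypes and for the interaction held under every alternative run. The age counts in Het were 11 to 15 higher and 5 to 7 lower over the alternatives, and in WT 10 to 17 and 5 to 7. The 10 came with the oral keratinocyte and muscle scores as covariates, which themselves differ between ages. In that fit 3712 of all 21510 genes rose and 3527 fell in WT. With these covariates Anxa2 was -0.063 in WT and -0.053 in Het, S100a7a -1.978 in WT and S100a14 -0.188 in Het. The cause was not tested. Without the 5 marker-raised libraries, Het against WT for Anxa1 at P11 was 0.06 and the S100a6 interaction 0.014. The P5 prefix comparison gave 0 members without the filter and 0 without the 5 libraries, and 0 to 1 over single libraries left out. The P11 prefix comparison gave 0 without the 5 libraries, 4 with the covariates and 4 to 11 over single libraries left out. Over all genes it gave 42 higher and 85 lower without the 5 libraries, and 289 and 433 with the covariates. Leaving out single libraries ended 27 WT age calls, all of Anxa11, Anxa11os, S100a2 or S100a7a, and 1 Het call, Anxa2. No label says whether replicate numbers pair the samples. Same-numbered WT and Het deviations correlated at 0.037 to 0.208 at P5, all above 0, and at -0.134 to 0.106 at P11. These values do not settle whether the numbers mark pairs. With the replicate block the members called were 16 higher and 6 lower in WT, 15 and 5 in Het, and 0 between genotypes. Low counts limit S100a2, S100a3, S100a4, S100g, Anxa13 and Anxa2r1.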
